A study of Mus musculus with 40 samples.

Results

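A set of 10 genes widely used as a readout of the transcription factor NRF2 was followed in the liver and kidney of mice given phenobarbital (PB). The genes were taken by symbol, whatever their signal. A probe set annotated to a single gene symbol was found for 9 of the 10 genes, which together had 21 probe sets among the 45037 of the array, and the remaining gene was not analysed here. Each tissue was profiled on a Mouse430_2 expression array, so the report rests on 40 arrays from 20 animals. All animals were male B6C3F1/Crl mice, the offspring of a C57BL/6 male and a C3H/He female, aged 29 to 32 days on arrival and acclimatised for 5 days. The PB group of 10 mice drank water with 0.05% (w/v) phenobarbital for 28 days, and the control group of 10 mice was kept for the same time without it. Liver and kidney with the same animal number came from the same mouse, giving 4 groups of 10 arrays (control liver, PB liver, control kidney and PB kidney). Values are MAS5 signals, a fluorescence intensity on a linear scale that the authors scaled to the same trimmed mean on every array. The number of arrays limits the precision, and a signal is comparable between animals for a given probe set but not between genes. Each whole tissue was measured, so a difference in the share of a cell type and a difference in RNA per cell cannot be told apart.

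NRF2, encoded by Nfe2l2, is held in the cytoplasm and handed to the proteasome by KEAP1 in unstressed cells. When electrophiles or oxidants modify KEAP1, NRF2 accumulates, pairs with a small MAF protein in the nucleus and binds antioxidant response elements near genes of detoxification, glutathione and thioredoxin metabolism and NADPH supply. In liver this programme is known for protection against reactive drug metabolites, whereas phenobarbital is best known for acting on hepatocytes through the constitutive androstane receptor (CAR), and several drug-metabolising genes are listed as targets of both factors.

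The stretches before the annotated start of the 3 target genes that rose in PB liver are shown because these genes were called in the same direction, with the core of the antioxidant response element (TGACNNNGC, searched on both strands) in capitals. They were read from RefSeq windows on GRCm38.p6 and are written 5′ to 3′ on the strand of the gene. The Nqo1 stretch lies at chr8:107403206-107403455 on the minus strand, the Ephx1 stretch at chr1:181017570-181017819 on the minus strand and the Gclm stretch at chr3:122245307-122245486 on the plus strand, and each ends at the last base outside the annotated gene, which for Gclm begins upstream of the start site used for the window.
Nqo1: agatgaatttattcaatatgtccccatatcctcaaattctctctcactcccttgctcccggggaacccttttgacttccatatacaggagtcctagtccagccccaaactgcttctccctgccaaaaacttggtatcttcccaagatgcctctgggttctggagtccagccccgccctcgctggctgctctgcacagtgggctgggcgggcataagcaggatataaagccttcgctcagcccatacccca
Ephx1: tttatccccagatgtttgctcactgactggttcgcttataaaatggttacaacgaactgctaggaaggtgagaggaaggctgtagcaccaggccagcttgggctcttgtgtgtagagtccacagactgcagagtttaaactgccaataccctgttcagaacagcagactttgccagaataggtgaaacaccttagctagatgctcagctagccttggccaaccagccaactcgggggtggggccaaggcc
Gclm: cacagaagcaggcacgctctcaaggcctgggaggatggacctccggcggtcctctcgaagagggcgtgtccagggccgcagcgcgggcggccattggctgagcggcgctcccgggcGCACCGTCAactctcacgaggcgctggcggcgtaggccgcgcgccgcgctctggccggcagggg
The core was present in the Gclm stretch, reading on the opposite strand from the gene and beginning 134 bases before the start site of the window, and these letters were not in the windows of Nqo1 and Ephx1. Over the full windows of 300 bases (250 before and 50 after the start), 8 of the 9 genes had an entry with 11 start sites in all, and 4 of the 11 windows (36.4%) held the core, against 12.4% of all 32851 windows in the table. The windows with a match belonged to Gclm, Srxn1, 1 of the starts of Txnrd1 and 1 of the starts of Pgd. A match is a run of letters, not evidence of binding.

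Tissue labels were checked first. Albumin (Alb), the secreted protein that defines hepatocytes, lay between 15657 and 25898 in the 20 livers and between 61.2 and 1030 in the 20 kidneys, and uromodulin (Umod), made by the thick ascending limb of the kidney, lay between 9637 and 13146 in kidney and between 5.3 and 122.9 in liver. The kidney androgen-regulated protein gene Kap reached 1230 in 1 liver (control liver 5), beside a liver median of 7.65 and at least 13557 in kidney. Exposure was visible in Cyp2b10, the classic CAR-responsive cytochrome P450, whose signal was 25.4 ± 9.84 (SD, n = 10) in control liver and 11482 ± 1067 (n = 10) in PB liver. Control liver 2 stood apart from the rest: by Dixon's test on log2 signal, which sets the gap of an extreme value to its neighbour against the range of the group, it was the high outlier in 196 and the low outlier in 390 of 9975 genes, and the next liver, PB liver 13, in 54 and 126. Results that rest on control liver 2 are given with and without it.

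In PB liver, 3 of the 9 NRF2 target genes rose, 1 fell and 5 did not pass the test. The genes that rose were Ephx1, Nqo1 and Gclm, by 1.26 to 1.89 times, and Taldo1 fell. Over all 9975 genes tested in liver, 6.45% were called higher and 7.72% lower with PB (limma, adjusted p under 0.05 over all probe sets with a mean signal of at least 50 in either group). The median log2 fold change of the 9 genes was 0.07, beside -0.02 over all genes. Centring the arrays on their median shifted the split over all genes from 643 higher and 770 lower to 489 higher and 902 lower, while the 4 calls among the NRF2 target genes were kept.

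**Figure D1:**
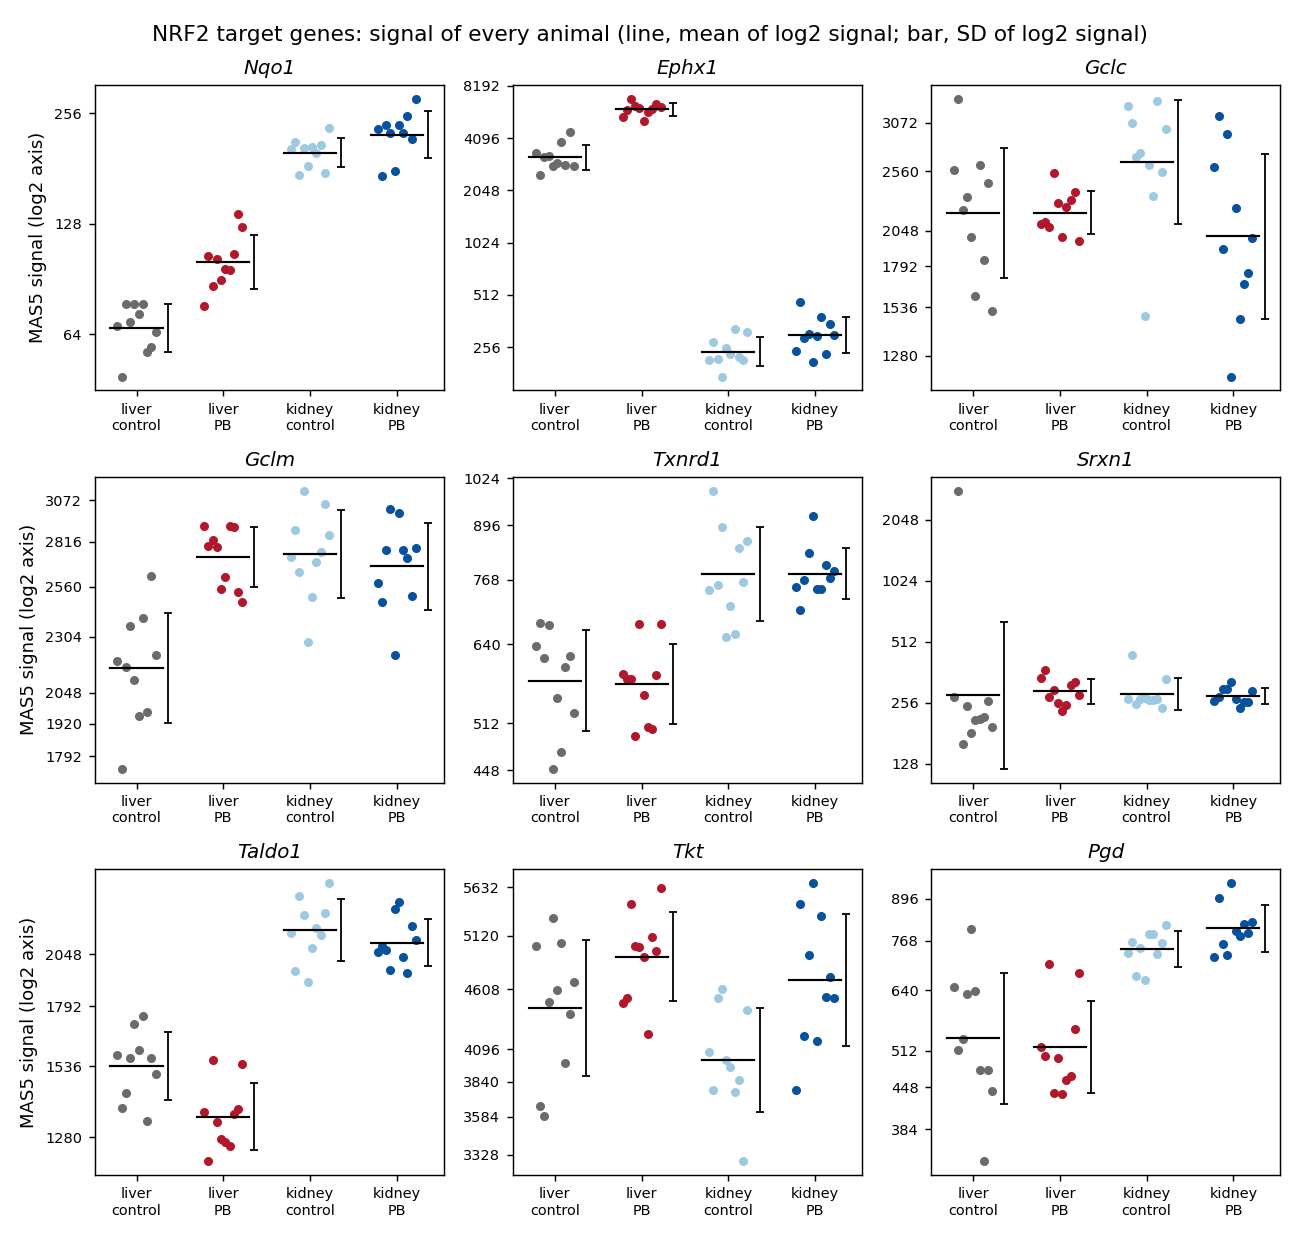
MAS5 signal (log2 axis) of the 9 NRF2 target genes in every animal of the 4 groups, 1 point per array, with the mean of the log2 signal as a line and its SD as a bar. The groups of Ephx1 in liver do not overlap, Nqo1 and Gclm are shifted upwards in PB liver, and 1 control liver lies far above all other points for Srxn1.

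Among the detoxification enzymes, Ephx1 and Nqo1 both rose in liver. Ephx1 encodes microsomal epoxide hydrolase, which opens reactive epoxides to diols. Its signal ran from 2504 through a median of 3079 to 4450 in control liver and from 5167 through 6045 to 6910 in PB liver. All 10 PB livers were above all 10 control livers, a separation upwards seen in 1.34% and downwards in 0.431% of all genes tested in liver. The mean rose from 3216 ± 575 (SD, n = 10) to 6026 ± 496, a log2 fold change of 0.92 (SE 0.08, adjusted p = 1.87e-08). Nqo1 encodes the quinone reductase that is the most commonly used indicator of NRF2 activity. It ran from 49.1 through a median of 68.3 to 77.6 in control liver and from 76.6 through 99.7 to 135.8 in PB liver. The groups met at their edges, with 9 of 10 PB livers above every control liver. The log2 fold change was 0.60 (SE 0.11, adjusted p = 0.000671), and the mean moved from 67.2 ± 9.66 to 102 ± 17.7 (SD, n = 10 each), close to the signal of 50 below which a probe set was left out.

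Of the 2 subunits of glutamate-cysteine ligase, the rate-limiting enzyme of glutathione synthesis, only the modifier subunit passed the test in liver. Gclm, which encodes the modifier subunit, ran from 1746 through a median of 2177 to 2622 in control liver and from 2482 through 2789 to 2913 in PB liver. Here 9 of 10 control livers lay below every PB liver. The log2 fold change was 0.34 (SE 0.06, adjusted p = 0.000517), and the second Gclm probe set gave 0.41 (SE 0.06, adjusted p = 0.000105). Gclc encodes the catalytic subunit. Its signal ran from 1515 through a median of 2267 to 3359 in control liver and from 1969 through 2177 to 2547 in PB liver, so the PB livers lay inside the range of the controls. The log2 fold change of Gclc was 0.002 with a 95% confidence interval of -0.22 to 0.22 (adjusted p = 0.994), and the second probe set gave 0.02 (adjusted p = 0.912).

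Neither Txnrd1 nor Srxn1, the genes of the set that belong to the thioredoxin system, was called in liver when all animals were used, and 1 animal decided it for Srxn1. Txnrd1 encodes cytosolic thioredoxin reductase, which returns thioredoxin to its reduced form. It ran from 450.1 through a median of 607.6 to 680.3 in control liver and from 493.5 through 580.3 to 678.6 in PB liver, with a log2 fold change of -0.01 and a 95% confidence interval of -0.18 to 0.15 (adjusted p = 0.931). The dimmer Txnrd1 probe set 1424486_a_at gave 0.17 (adjusted p = 0.271), and 0.21 (adjusted p = 0.157) without control liver 2, and did not pass either. Srxn1 encodes sulfiredoxin, which repairs over-oxidised peroxiredoxins. Its signal in control liver was 2847 in control liver 2 and between 160.8 and 273.7 in the other 9 controls, while PB livers ran from 234.3 through a median of 288.3 to 373.3. With all animals, the log2 fold change of Srxn1 was 0.07 with a 95% confidence interval of -0.64 to 0.78 (adjusted p = 0.924). Without control liver 2, Srxn1 rose by a log2 fold change of 0.44 (SE 0.10, adjusted p = 0.0054), and 4 of the 9 genes rose and 1 fell.

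The excess of Srxn1 in control liver 2 was present in every probe set of the gene. The 4 probe sets were 3.51, 17.1, 13.4 and 9.37 times the median of the other 9 control livers (1419942_at, 1425351_at, 1426875_s_at and 1451680_at in turn). Without that animal the probe set 1451680_at also rose with PB, by 0.36 (SE 0.09, adjusted p = 0.0104), whereas 1425351_at gave 0.48 (SE 0.19, adjusted p = 0.101). The kidney of the same mouse also held the highest Srxn1 signal of the control kidneys on the 2 brightest probe sets, 443.5 against 240.7 to 337.6 and 220 against 118.3 to 168.1, and the highest signal on the brightest Txnrd1 probe set, 987.7 against 653.3 to 892.2. On the 2 dimmer probe sets of Srxn1 and on the 2 dimmer ones of Txnrd1 that kidney lay within the range of the others. Control liver 2 was not raised across the set: its Gclc signal (3359) and its Txnrd1 signal (680.3) were above, and its Nqo1 (49.1), Ephx1 (2504) and Gclm (1746) signals below, those of all other control livers. Without it, 6.43% of 9961 genes were called higher and 8.00% lower with PB in liver, and Ephx1 (0.88), Nqo1 (0.55), Gclm (0.30) and Taldo1 (-0.21) kept their calls.

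**Figure D2:**
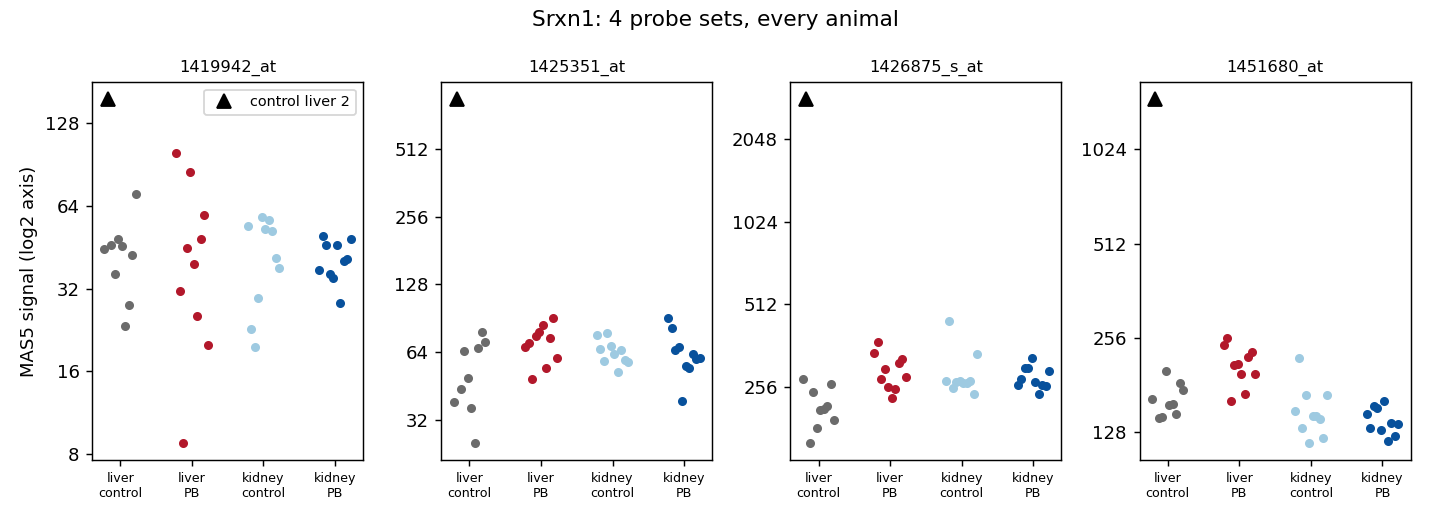
MAS5 signal (log2 axis, a separate scale in each panel) of the 4 Srxn1 probe sets in every animal of the 4 groups, with control liver 2 as a black triangle. That liver reaches 2847 on 1426875_s_at, where the other 9 control livers lie between 160.8 and 273.7.

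The pentose phosphate pathway supplies NADPH, which thioredoxin reductase, glutathione reductase and NQO1 consume. Taldo1, the transaldolase of its non-oxidative arm, ran from 1337 through a median of 1568 to 1748 in control liver and from 1206 through 1346 to 1561 in PB liver. It fell by 0.19 on the log2 scale (SE 0.06, adjusted p = 0.0316), with 5 of 10 PB livers below every control. This call is near the threshold: it was lost on leaving out any 1 of 9 of the 20 livers (control livers 1, 4, 5, 6 and 7 and PB livers 12, 15, 16 and 17) and without the filter on low signals, with adjusted p from 0.0501 to 0.0644. Tkt, the transketolase of the same arm, ran from 3590 through a median of 4547 to 5298 in control liver and from 4223 through 4987 to 5619 in PB liver, and its log2 fold change of 0.15 (SE 0.07, adjusted p = 0.181) did not pass, nor did that of its second probe set tested (0.17, adjusted p = 0.0599). Pgd encodes 6-phosphogluconate dehydrogenase, an NADPH-producing step of the oxidative arm. Its log2 fold change in liver was -0.05 with a 95% confidence interval of -0.30 to 0.21 (adjusted p = 0.844), and its other 3 probe sets gave between -0.04 and 0.10.

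In kidney, none of the 9 NRF2 target genes passed the test (limma, adjusted p under 0.05). Over the 10082 genes tested there, 2.17% were called higher and 1.57% lower with PB, and groups that did not overlap were found in 0.159% (higher) and 0.0793% (lower) of them. An unadjusted p under 0.05 was found for 5 of the 9 genes, upwards for Tkt, Ephx1, Nqo1 and Pgd and downwards for Gclc. The share of all genes at that unadjusted threshold was not computed, so no response is read from this count. The median log2 fold change of the 9 genes was 0.001, beside 0.009 over all genes. Centring the arrays on their median moved the split over all genes from 219 higher and 158 lower to 220 higher and 76 lower. The groups of all 9 genes overlapped in kidney.

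Tkt came nearest to a call in kidney. It ran from 3287 through a median of 3980 to 4613 in control kidney and from 3776 through 4626 to 5676 in PB kidney, with 5 of 10 PB kidneys above every control. The log2 fold change of Tkt was 0.23 (SE 0.07, adjusted p = 0.0747), and the second probe set gave 0.23 (adjusted p = 0.0695). Quantile normalization took it past the threshold (0.26, adjusted p = 0.0427), as did leaving out PB kidney 11 (0.26, adjusted p = 0.0304). Gclc ran from 1487 through a median of 2720 to 3338 in control kidney and from 1185 through 1953 to 3155 in PB kidney. Its log2 fold change of -0.41 (SE 0.16, adjusted p = 0.165) did not pass with all animals, and without control kidney 5, the lowest of its group, it fell by 0.50 (adjusted p = 0.0453). Ephx1 ran from 173.5 through 230.2 to 327.6 in control kidney and from 211.1 through 299.7 to 469.1 in PB kidney, with a log2 fold change of 0.31 (SE 0.13, adjusted p = 0.184). The signal of Alb was raised in some kidneys: control kidneys 3 and 9, with Alb at 922.8 and 735.8, had Ephx1 at 218.6 and 216.8, below the median of their group, as did control kidney 1 (Alb 582.7, Ephx1 217.5). Control kidney 10 (Alb 416.1, Ephx1 314.7) and PB kidney 19 (Alb 1030, Ephx1 349.2) were above the medians of their groups. Whether this Alb signal came from liver tissue, and the part of liver transcripts in the kidney values of Ephx1, was not tested. Nqo1 had a mean of 201 ± 18.5 in control and 226 ± 31.8 in PB kidney (SD, n = 10 each), a log2 fold change of 0.16 (SE 0.08, adjusted p = 0.261). The remaining 5 genes had log2 fold changes between -0.05 and 0.11 in kidney.

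**Figure D3:**
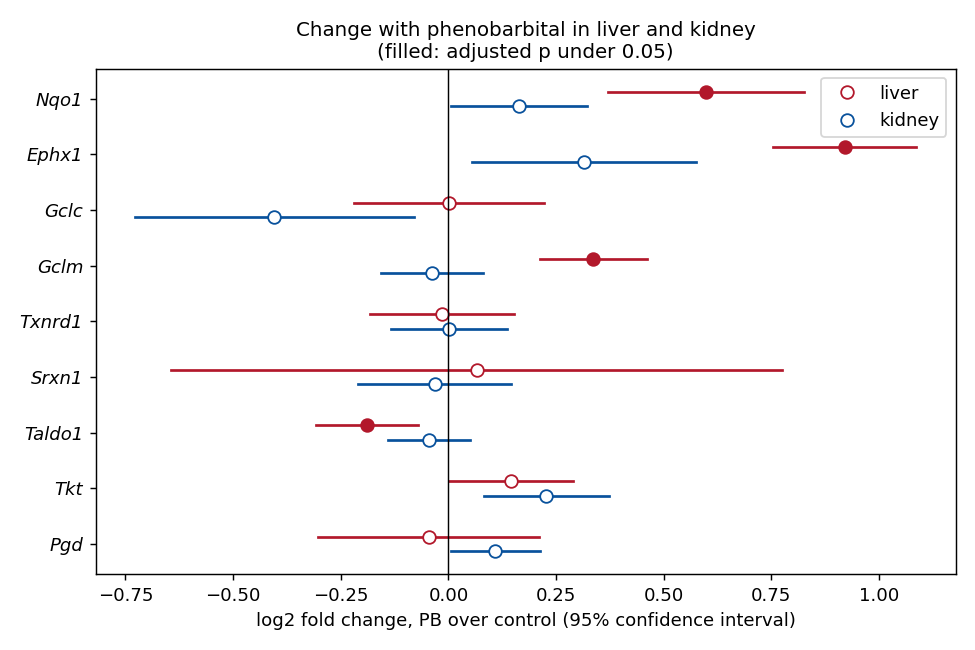
Log2 fold change (PB over control) of the 9 NRF2 target genes in liver (red) and kidney (blue), each with its 95% confidence interval and filled where the adjusted p was under 0.05. Ephx1, Nqo1 and Gclm are above 0 and Taldo1 below 0 in liver, and no kidney point is filled.

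The difference between the tissues was tested directly, as the PB effect in liver minus that in kidney over all 40 arrays. Of the 9 genes, 3 changed more towards higher values in liver, Gclm by 0.37 (SE 0.08, adjusted p = 0.00355), Ephx1 by 0.61 (SE 0.16, adjusted p = 0.0127) and Nqo1 by 0.43 (SE 0.13, adjusted p = 0.0391). Over 11193 genes, the signed log2 change was higher in liver than in kidney for 3.56% and lower for 4.09%. The call for Nqo1 was near the threshold: it was lost with the animal as a fixed replicate block (adjusted p = 0.0552), without control liver 2 (0.0574), with an offset of 16 before log2 (0.0571), without the filter on low signals (0.0763) and with arrays centred on their median (0.088), and it was kept with the animal as a random block (0.0311). Without control liver 2, Srxn1 differed by 0.47 (adjusted p = 0.0286). For Gclc the difference of 0.41 had a 95% confidence interval of 0.00 to 0.81 (adjusted p = 0.259), so a difference in the response of Gclc between the tissues was not shown.

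The levels in the 2 tissues differed for most of the genes before any treatment. In control mice, Ephx1 was 13.1 times higher in liver (95% confidence interval 11.3 to 15.3), and 5 genes were higher in kidney, with Nqo1 showing the largest gap. Nqo1 in liver was at 0.333 times its kidney signal (0.294 to 0.377). Taldo1 (0.707 times), Pgd (0.72), Txnrd1 (0.74) and Gclm (0.787) were also lower in liver than in kidney, with adjusted p of 0.000335 or less. For Gclm and Txnrd1 this held on the main probe set only. The second Gclm probe set (1.08 times, adjusted p = 0.12) and the Txnrd1 probe set 1424486_a_at (1.11 times, adjusted p = 0.184) did not pass in control mice. Over 10920 genes tested, 36.5% were higher in liver and 44.2% higher in kidney in control mice. Gclc (0.825 times, adjusted p = 0.0745), Srxn1 (0.982 times, adjusted p = 0.948) and Tkt (1.11 times, adjusted p = 0.0692) did not pass with all animals, and without control liver 2 all 3 did, with log2 differences between liver and kidney of -0.35, -0.40 and 0.18. With all animals, Gclc also passed under quantile normalization (-0.47, adjusted p = 0.00372, beside -0.28 as deposited) and with arrays centred on their median (-0.35, adjusted p = 0.0292).

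In PB mice, Ephx1 was 20 times higher in liver than in kidney, and Nqo1 in liver reached 0.449 times its kidney signal (adjusted p = 2.73e-10). The difference that the main Gclm probe set showed in control mice was not detected on it in PB mice: the liver signal was 1.02 times the kidney signal, with a 95% confidence interval of 0.948 to 1.1 (adjusted p = 0.613). Taldo1 (0.64 times), Pgd (0.646) and Txnrd1 (0.732) stayed lower in liver. Of the 11029 genes tested in PB mice, 36.2% were higher in liver and 46.6% higher in kidney. Quantile normalization turned the sign of the tissue difference for Tkt in both groups of mice and for Gclm in PB mice, so the order of liver and kidney is not settled for these 2 genes. The second Gclm probe set was higher in PB liver than in PB kidney (1.37 times), unlike the first, and the Txnrd1 probe set 1424486_a_at likewise ran opposite to the main one (1.29 times higher in PB liver), so for these genes the tissue order also depends on the probe set. The main Srxn1 probe set did not pass in PB mice (1.05 times, adjusted p = 0.401), but did under quantile normalization (log2 difference 0.24, adjusted p = 0.0056). The Srxn1 probe set 1451680_at was 1.5 times higher in PB liver (adjusted p = 9.55e-07). Second probe sets of Gclc (0.742 times, adjusted p = 0.00322) and Tkt (1.17 times, adjusted p = 0.000852) passed the test between control liver and control kidney where the main ones did not.

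The regulators of the pathway showed no call in liver. Of the 12 genes listed, 10 had a mean signal of at least 50 in a group, and Rbx1 (mean 37.4 in control liver) and Maff (15.8) did not. Nfe2l2, which encodes NRF2 itself, ran from 406.7 through a median of 532.9 to 705 in control liver and from 510.6 through 646.4 to 823.3 in PB liver, a log2 fold change of 0.29 (SE 0.11, adjusted p = 0.0969). Keap1, its repressor, gave 0.18 (SE 0.07, adjusted p = 0.0792), and the small MAF partners Mafg and Mafk gave 0.26 (adjusted p = 0.112) and 0.24 (adjusted p = 0.456). Bach1, which competes with NRF2 for the same elements, gave -0.13 (adjusted p = 0.63). The ubiquitin ligase scaffold Cul3 (0.03), the alternative substrate receptor Btrc (-0.08), the KEAP1-binding proteins Sqstm1 (0.02) and Dpp3 (-0.03) and the related factor Nfe2l1 (-0.004) had adjusted p of 0.69 or more in liver. In kidney Sqstm1 fell by 0.18 (SE 0.05, adjusted p = 0.0293), and the other 9, of which Nfe2l1 had the largest increase (0.16, adjusted p = 0.245) and Mafk the largest decrease (-0.16, adjusted p = 0.335), did not pass. Sqstm1 was 1 of 2 other pathway genes called lower in kidney, a count that fell to 1 under several alternatives given below. Nfe2l2 in kidney gave 0.04 (adjusted p = 0.731).

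Of 72 other genes of the pathway tested in liver, drawn from 6 lists that include the regulators, 20 rose and 5 fell with PB, where 6.45% of all genes tested in liver rose and 7.72% fell. The median log2 fold change of the 72 genes was 0.12, beside -0.02 over all genes. Without control liver 2, 19 rose and 6 fell. Among other NRF2 targets, 14 of 22 rose and 1 fell. Txn1 and Cbr1 are among these 14 and belong also to the thioredoxin and the quinone reductase list, and each counts once among the 20. The lists were chosen with earlier results of these data known, so the counts describe these lists only. Those with the largest changes were Trib3, a pseudokinase of the stress response (0.78, SE 0.22, adjusted p = 0.0215), the aldehyde oxidase Aox1 (0.74, SE 0.08, adjusted p = 9.55e-07), Ugdh, which makes UDP-glucuronic acid for glucuronidation (0.62, SE 0.09, adjusted p = 3.62e-05), and the carboxylesterase Ces1g (0.58, SE 0.09, adjusted p = 6.43e-05). Osgin1, an oxidative stress-induced growth inhibitor, fell from 2375 ± 675 to 1620 ± 443 in liver (SD, n = 10 each, adjusted p = 0.0273). In kidney it rose from 344 ± 67.3 to 498 ± 122 (adjusted p = 0.031), and the 2 effects differed by -1.07 (SE 0.22, adjusted p = 0.00145).

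**Figure D4:**
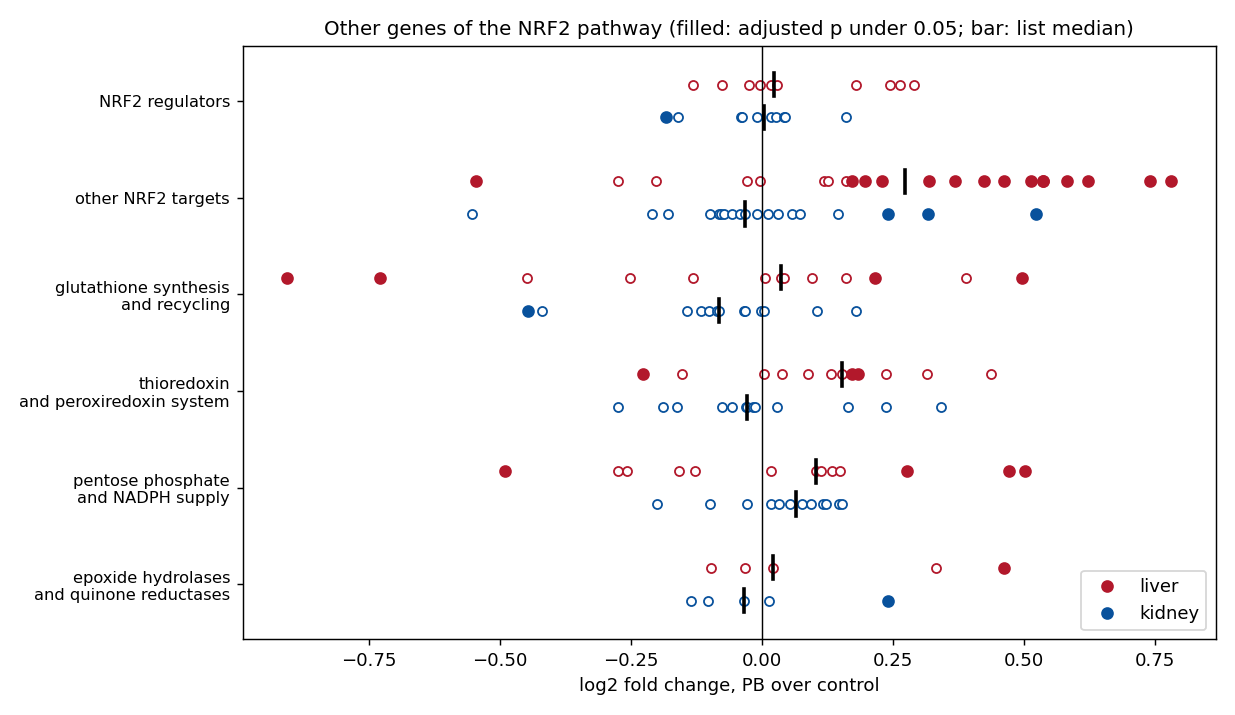
Log2 fold change (PB over control) of every tested gene of 6 lists of the NRF2 pathway in liver (red) and kidney (blue), filled where the adjusted p was under 0.05, with a black bar at the median of each list. The list of other NRF2 targets has the highest median in liver (0.27), and few kidney points are filled.

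Of 13 genes of glutathione synthesis and recycling, 2 rose and 2 fell in liver (6.45% and 7.72% of all genes). The genes that fell were Chac1, a glutathione-specific cyclotransferase, which fell by 0.91 (SE 0.22, adjusted p = 0.00703), and Ggct, the gamma-glutamyl cyclotransferase, which fell by 0.73 (SE 0.09, adjusted p = 3.43e-06). Glutaredoxin (Glrx, 0.50, adjusted p = 0.00125) and the lipid peroxide reductase Gpx4 (0.21, adjusted p = 0.0258) rose. Of 13 genes of the thioredoxin and peroxiredoxin system, the mitochondrial peroxiredoxin Prdx3 (0.18, adjusted p = 0.0154) and thioredoxin itself (Txn1, 0.17, adjusted p = 0.0103) rose, and Prdx4, the peroxiredoxin of the endoplasmic reticulum, fell by 0.23 (adjusted p = 0.00184).

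Of 13 genes of the pentose phosphate pathway and other NADPH supply, 3 rose and 1 fell in liver, beside the same 6.45% and 7.72% over all genes. Shpk, the sedoheptulose kinase, rose by 0.50 (adjusted p = 0.000511), and the NADP-dependent isocitrate dehydrogenases Idh2 and Idh1 rose by 0.47 (adjusted p = 0.000511) and 0.28 (adjusted p = 0.00312). H6pd, the hexose-6-phosphate dehydrogenase of the endoplasmic reticulum, fell by 0.49 (adjusted p = 0.00287). The list of other epoxide hydrolases and quinone reductases held 9 genes, of which 8 had a probe set annotated to a single symbol and 5 were tested. Among these 5 genes, the carbonyl reductase Cbr1 rose by 0.46 (adjusted p = 0.000141) and the others did not pass. Genes of the list that were not tested may also have responded. Por, which the paper lists among its most up-regulated liver genes, was not tested here.

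In kidney, 3 of 68 other pathway genes rose and 2 (Ggct and Sqstm1) fell, where 2.17% of all genes tested rose and 1.57% fell. The number that rose was 1 with Welch's test and with the methods' t-test on linear signal, and the number that fell was 1 with Welch's test, with no filter, with arrays centred on their median and with all 40 arrays in 1 fit. Mgst1, a microsomal glutathione transferase, rose by 0.32 (SE 0.07, adjusted p = 0.0196), Cbr1 by 0.24 (SE 0.06, adjusted p = 0.0255) and Osgin1 by 0.52 (SE 0.13, adjusted p = 0.031). Ggct fell in kidney as it did in liver, from 1266 ± 241 to 924 ± 139 (SD, n = 10 each, adjusted p = 0.0139). In the thioredoxin and NADPH lists no kidney gene passed, and the member with the highest signal in each gave -0.06 (Txn1, adjusted p = 0.43) and 0.09 (Idh1, adjusted p = 0.383).

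Markers of other cell types also moved with PB in liver, and their part in these results was not tested. Over all genes tested in liver, 7.72% fell and 6.45% rose. Of 5 stellate cell and fibroblast markers tested, 4 fell (Des, Pdgfrb, Dcn and Reln). The summed signal of the 5, in which the brightest genes weigh most, had a median of 2912 in control and 2365 in PB liver. Of 3 endothelial markers 1 (Stab2) fell, and of 6 macrophage markers 1 (Cd163) fell. None of 5 hepatocyte markers passed the test, with a summed signal of 84917 in control and 84315 in PB liver (medians). Of 4 pericentral hepatocyte markers, Cyp1a2 rose, and neither of 2 periportal markers passed.

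Co-variation of the 9 genes between animals was examined within each group of 10, for 36 pairs of genes in 4 groups. None of the 144 correlations of log2 signal passed a two-sided permutation test after Benjamini-Hochberg adjustment, and 20 (Pearson's r) and 14 (Spearman's rho) had an unadjusted p under 0.05. The median r was 0.05 in control liver, 0.16 in PB liver, 0.29 in control kidney and -0.09 in PB kidney. The pair with the largest r, named after its value was seen, was Ephx1 and Gclm in control liver (r = 0.889, permutation p = 0.00064, adjusted p = 0.0922, rho = 0.782, permutation p = 0.0108, adjusted p = 0.411). Without the 2 animals farthest from the median of Ephx1 (control livers 9 and 7), r was 0.79. Control liver 2, the lowest control for both genes, was kept in this value, and r without it was not computed.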

How the data were processed

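Total RNA from 40 tissue samples was hybridised to Mouse430_2 arrays. The authors processed the scans with GCOS and deposited MAS5 signal intensity values that they had brought to a common trimmed mean of 150; MAS5 subtracts mismatch signal, so dim probe sets are noisy. The recomputed trimmed means ran from 148.4 to 149.2 (2% cut from each end). No versions are given in the sources used here.

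The gene set and lists were chosen with earlier results of these data known. Probe sets (34945 with 1 symbol, 932 with several, 9160 with none) were named from the platform annotation, 34741 of them matched to RefSeq, and each gene was counted through its brightest probe set. Signals were floored at 1 and log2-transformed, the filter kept probe sets whose mean signal reached 50 in a compared group, and limma 3.58.1 (lmFit, eBayes with a mean trend, R 4.3.3) was used, with Benjamini-Hochberg adjustment over all probe sets tested. The test was checked on simulated data. Liver and kidney were paired through the animal number in the labels (median correlation of deviations 0.04 in 20 same-animal pairs, -0.003 otherwise). Replicates are separate animals. Correlations used 100000 permutations.

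Named genes were the 9 genes, all regulators, of each other list up to 4 genes called in liver and 3 in kidney with the largest change (the brightest where none was called), and Cyp2b10. Alternatives covered the filter, floor, offset, scaling, the t-test of the study, probe set choice, animal block, label order and leaving out each animal; leaving control liver 2 out of the comparisons between tissues was added after seeing the data.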

Additional observations from a re-analysis of the deposited data

Results flagged for a closer look

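Among 142 sets of 10 values (the named genes in the groups where they were tested), 10 held an animal whose gap to its neighbour in log2 signal, as a share of the log2 range of the group, was above the 95% critical value of Dixon's test (0.466). Chance gives about 1 in 20 such sets. The ratio was 0.815 for Srxn1 in control liver 2 (2847, other controls 160.8 to 273.7) and 0.559 for Gclc in control kidney 5 (1487, other controls 2337 to 3338). It was 0.472 for Idh2 in control liver 2, 0.483 for Dpp3 in PB liver 16, 0.468 for H6pd in PB liver 19, 0.548 for Ugdh in PB liver 12, 0.596 for Prdx3 in control liver 9 and 0.485 for Prdx3 in PB liver 13. In control kidney it was 0.500 for Idh1 in animal 4 and 0.535 for Mgst1 in animal 10.

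The PB effect differed between liver and kidney (interaction term of limma, adjusted p under 0.05) for 3 NRF2 target genes, by 0.374 (Gclm), 0.607 (Ephx1) and 0.433 (Nqo1) on the log2 scale. The difference for Nqo1 did not pass under 5 alternatives (adjusted p from 0.0552 to 0.088). Among the other named genes the signed log2 change was higher in liver than in kidney for Ces1g (1.134), Shpk (0.538), Ugdh (0.478), Idh2 (0.419), Glrx (0.391), Txn1 (0.229) and Prdx3 (0.212). It was lower in liver for Osgin1 (-1.068), H6pd (-0.507), Prdx4 (-0.463) and Mgst1 (-0.320). Lower does not mean a weaker response here: Osgin1, H6pd and Prdx4 fell in liver. Osgin1 and Mgst1 rose in kidney, where H6pd had means of 810.1 (control) and 816.5 (PB). Ces1g in kidney had a mean near the filter (81.2 ± 35.9 in control and 54.5 ± 24.9 in PB kidney).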

How the results depend on the processing

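Of 330 recomputed counts, 300 stayed within 1.5 times the reported count. Of 891 recomputed log2 differences of single genes, 859 kept their side of the threshold. Of the rest, 15 lost a call, 14 gained one and 3 gained one with the sign reversed. The sign of changes near 0 was not always kept: without control liver 2, Txnrd1 in liver moved from -0.014 to 0.012. Ephx1, Nqo1 and Gclm kept their liver calls under all 33 alternatives, with adjusted p of at most 1.62e-05, 0.00178 and 0.00477. On leaving out each animal in turn, NRF2 target genes called in liver ranged from 3 to 4 higher and 0 to 1 lower, and in kidney from 0 to 1 higher and 0 to 1 lower, while other pathway genes ranged from 18 to 21 higher and 4 to 6 lower in liver and from 2 to 4 higher and 1 to 3 lower in kidney. With no filter, 0 NRF2 target genes were lower in liver and 1 other gene lower in kidney. Quantile normalization gave 1 NRF2 target gene higher in PB kidney, 5 other genes higher in PB kidney, 2 NRF2 target genes higher in liver than kidney in PB mice, and reversed Tkt between the tissues (-0.205 in control mice and -0.402 in PB mice) and Gclm in PB mice (-0.225). With arrays centred on their median, with Welch's test and with all 40 arrays in 1 fit, 1 other gene was lower in kidney, and 1 was higher there with Welch's test and with the methods' t-test on linear signal. Without s and x probe sets, 2 genes in control mice and 3 in PB mice were higher in liver than in kidney, and without control liver 2 there were 2 in control mice. In the paired analysis with the animal as a fixed replicate block, 2 NRF2 target genes had a larger PB effect in liver (3 with a random block), with Nqo1 at an adjusted p of 0.0552, and no other call among the 9 genes changed. At the study's fold and p thresholds, the methods' t-test on linear signal called 2 of the 9 genes higher (Ephx1 and Nqo1) and 0 lower in liver, and 0 in kidney. Over all genes it called 155 higher and 74 lower of 9975 in liver, and 12 higher and 19 lower of 10082 in kidney. The same 2 genes passed the fold with an adjusted p under 0.05 in liver, beside 180 higher and 115 lower over all genes. The causes were not tested. Centring on the median moved the median of all genes between tissues in PB mice from -0.115 to -0.241. Nqo1 in control liver (67.2) was the dimmest of these values and nearest to the filter of 50.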
